A study of Ichthyophis bannanicus with 29 samples.

Results

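The 200 steadiest broadly expressed genes of *Ichthyophis bannanicus* are described here across 10 tissues. This species is a caecilian, a limbless burrowing amphibian. RNA sequencing of poly-A RNA gave 29 libraries: 3 each from testis, stomach, spleen, skin, lung, liver, kidney, heart and blood, and 2 from ovary, numbered 1 and 3. The labels give no sex, age, treatment or animal for a library, so it is not known which libraries share an animal, and a p-value speaks for the variation among these libraries alone, some of it perhaps technical. The deposited values were TPM (a transcript's length-corrected share of its library, scaled to a sum of 1000000) for 53113 assembled genes.

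The 200 genes were chosen by their measured values in all 29 libraries. A gene had to reach 10 TPM in every library and stay below 100 TPM in at least 1, which 1701 genes (3.20% of the table) did. Each library was then divided by its median-of-ratios factor, computed over the 10028 genes that reached 1 TPM in all libraries, and the result is called rescaled TPM below. The 200 genes with the lowest standard deviation (SD) of log2(rescaled TPM + 1) over the 29 libraries were kept, which is 11.8% of the 1701. All 200 passed the filter on low values by the rule itself. Their low spread is therefore the way they were picked, and it is given as a description without a test.

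Genes of this kind are sought as reference genes. A level measured by quantitative PCR or sequencing is a ratio to something, and a gene that holds nearly the same level in every tissue can serve as the denominator. Such genes usually encode parts of the machinery that every cell needs, for making and folding proteins, moving vesicles or producing energy. TPM itself is a share of a library, so a tissue in which a few transcripts take up much of the RNA shows lower TPM for all the others. Median-of-ratios factors are meant to remove that effect. The ratio of 2 genes within a library needs no factor at all. In whole tissues, fewer cells that express a gene and less RNA of it per cell cannot be told apart.

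The row names are IDs of the kind the Trinity assembler gives, with no gene names beside them. Of 30 symbols of commonly used reference genes, 0 matched a row name, so it is not known which familiar reference genes are among the 200. No role can be given to any ID, and the labelled tissues could not be checked against marker genes. An assembled gene can be a fragment or can join near-identical copies. Of the 200 genes, 152 (76.0%) were the only gene of their assembly component, against 76.5% of the 1701 and 76.7% of the whole table. In this respect the 200 looked like the rest of the table. No 2 of the 200 came from the same component, while 55 of the 1701 shared a component with another of the 1701. By their IDs, 2 of the 200 shared a read cluster, the level above the component, and 200 of the 1701 did so. A shorter list holds fewer such pairs, so these counts are not compared.

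Sequencing depth cannot be read from TPM, so it is unknown here and no counting interval can be given. Libraries differed in scale. The median-of-ratios factors ran from 0.468 in spleen replicate 1 to 1.66 in ovary replicate 1. Spleen replicate 1 also had the fewest genes at 1 TPM or more, 18410, where the other 28 libraries had 23542 to 36057. Some libraries had raised levels of genes otherwise restricted to another tissue. Of 42 genes restricted to kidney replicates 2 and 3, the median level in testis replicate 1 was 6.98% of that in kidney. For 52 genes restricted to ovary it was 34.8% in kidney replicate 1, and for 29 genes restricted to spleen it was 10.1% in liver replicate 2. In choosing those genes, libraries of other tissues had been held to 1% or less, except spleen 1, kidney 1, testis 1 and liver 2. The contrast with the other libraries is therefore set in part by the choice, and where these transcripts came from was not tested. These 4 libraries (spleen 1, kidney 1, testis 1 and liver 2) are left out together where a result is given without 4 libraries.

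The 200 genes were moderately expressed. Their mean over the libraries ran from 16.2 to 405 rescaled TPM, with a median of 39.1, against a median of 64.9 over the 1701 genes. A mean under 50 rescaled TPM was found for 130 of the 200 (65.0%) and for 640 of the 1701 (37.6%). Low spread and low level went together within the limits. Of the 73 genes with a mean under 25 rescaled TPM, 27 (37.0%) were among the 200. Of the 537 genes with a mean of 100 or more, 21 (3.91%) were. A gene near the floor cannot fall far without leaving the 1701, and what this adds to the trend was not tested. Together the 200 genes took a median of 1.08% of all TPM in a library, from 0.680% in spleen replicate 1 to 1.75% in ovary replicate 1.

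**Figure D1:**
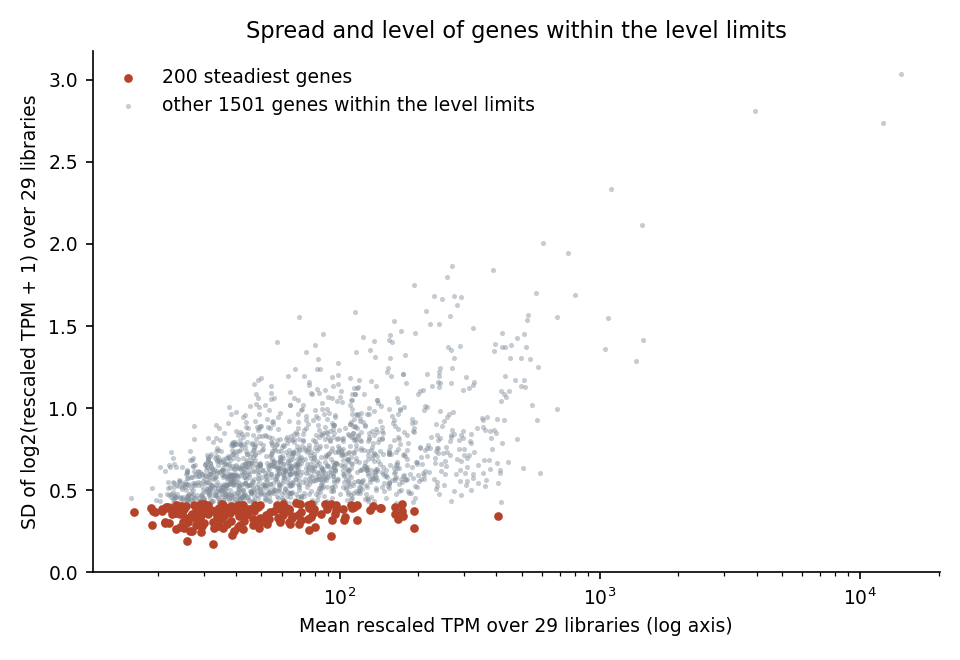
Each point is a gene that reached 10 TPM in all 29 libraries and was below 100 TPM in at least 1. The x axis is its mean rescaled TPM over the 29 libraries on a log axis, and the y axis is the SD of log2(rescaled TPM + 1). The 200 steadiest genes, in red, lie at or under an SD of 0.42, and most lie at the low end of the x axis, with a median mean of 39.1 rescaled TPM.

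Genes more abundant than the upper limit were rarely as steady. The rule leaves out 144 genes that never fell below 100 TPM. Their SD had a median of 0.80 log2, against 0.62 log2 for the 1701. For the 537 of the 1701 with a mean of 100 rescaled TPM or more it was 0.74 log2. At or under the SD of the last gene chosen were 3 of the 144 (2.08%), against 11.8% of the 1701 and 3.91% of the 537. The median of 0.36 log2 in the 200 follows from their choice. With no upper limit, 197 of the 200 would have been chosen all the same.

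The SD of the 200 genes ran from 0.18 to 0.42 log2, with a median of 0.36 log2, against a median of 0.62 log2 over the 1701. The choice has a soft edge. The last gene inside, TRINITY_DN93281_c0_g1, had an SD of 0.4202 log2, and the first outside, TRINITY_DN9641_c0_g1, had 0.4208 log2. In rescaled TPM, the highest library of a gene was a median of 2.87 times its lowest. For 116 of the 200 genes all 29 libraries lay within 3-fold of each other, and for 4 within 2-fold. The other 84 varied by more than 3-fold, up to 5.77-fold. In TPM as deposited the median ratio of the highest to the lowest library was 4.11.

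The steadiest gene was TRINITY_DN772_c0_g1, with an SD of 0.18 log2. It was at 38.7, 35.4 and 34.3 rescaled TPM in blood, at 34.9, 28.7 and 30.5 in heart, at 24.9, 33.0 and 35.0 in kidney and at 34.7, 31.0 and 32.1 in liver. In lung it was at 35.6, 30.2 and 41.9 rescaled TPM, in ovary at 29.3 and 27.4, in skin at 32.0, 31.4 and 29.5 and in spleen at 34.3, 37.7 and 39.2. In stomach it was at 26.7, 25.6 and 30.3 rescaled TPM and in testis at 34.0, 33.3 and 32.8. The mean was 32.6 ± 4.05 rescaled TPM (SD, n = 29), a coefficient of variation of 12.4%. The lowest library was kidney replicate 1 and the highest lung replicate 3, a ratio of 1.68. Stomach had the lowest tissue mean, 27.5 rescaled TPM, and spleen the highest, 37.1. In limma, described below, it was called in none of the 10 tissues, with a lowest Benjamini-Hochberg adjusted p of 0.121, in stomach. In TPM as deposited the same gene ran from 16.0 to 54.6 TPM, a ratio of 3.41.

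TRINITY_DN117800_c0_g1 came next, with an SD of 0.19 log2 and a mean of 25.8 ± 3.62 rescaled TPM (SD, n = 29). It was at 21.2, 20.7 and 21.8 rescaled TPM in blood, at 22.5, 26.3 and 22.1 in heart, at 22.5, 24.2 and 22.0 in kidney and at 23.6, 28.1 and 26.4 in liver. In lung it was at 29.2, 24.1 and 30.1 rescaled TPM, in ovary at 23.6 and 22.4, in skin at 26.4, 21.9 and 23.6 and in spleen at 31.5, 29.3 and 29.1. In stomach it was at 23.8, 30.0 and 32.0 rescaled TPM and in testis at 31.1, 30.2 and 28.7. Its highest library was 1.54 times its lowest, the smallest ratio of the 1701 genes. It was still called in 1 tissue, lower in blood by a difference of -0.28 log2 (limma, Benjamini-Hochberg adjusted p = 0.0486). Blood, spleen and testis each had libraries close together, with blood at the bottom of the range and the other two near the top. The ratio of TRINITY_DN772_c0_g1 to TRINITY_DN117800_c0_g1, which no scaling changes, had an SD of 0.25 log2 over the 29 libraries.

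**Figure D2:**
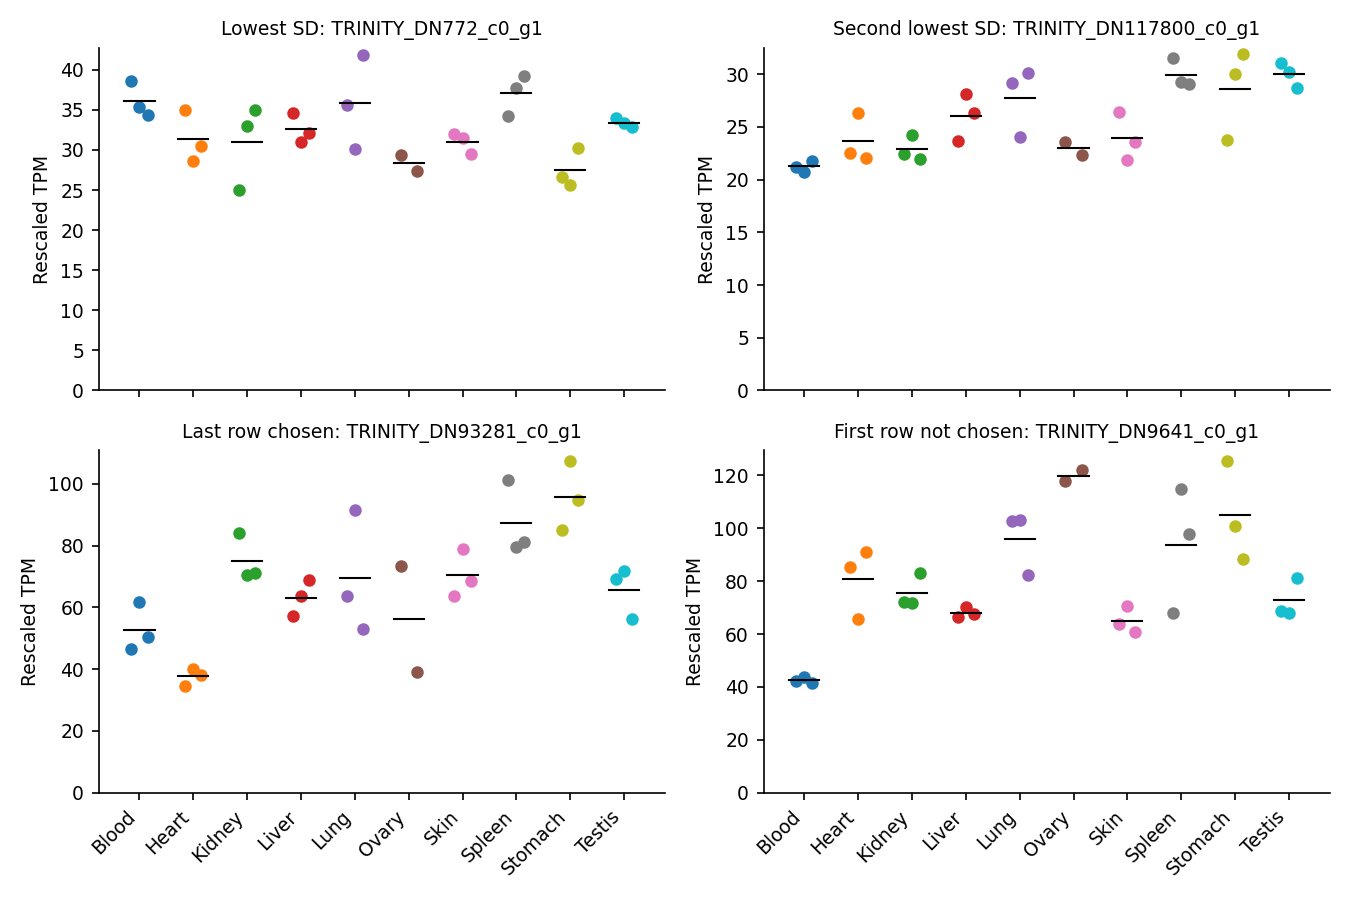
Rescaled TPM (y axis, starting at 0) of 4 genes in every library, grouped by tissue on the x axis, with a line at each tissue mean. The 2 steadiest genes keep all libraries within 1.68-fold and 1.54-fold, while the last gene chosen and the first not chosen each span about 3-fold and have a low tissue, heart in the first and blood in the second.

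The 2 genes on either side of the edge looked alike. TRINITY_DN93281_c0_g1, the last chosen, was at 34.7 rescaled TPM at its lowest, 68.8 at the median and 107 at its highest. TRINITY_DN9641_c0_g1, the first not chosen, was at 41.4, 72.2 and 125 rescaled TPM. Both had a tissue at the bottom: heart, at 34.7, 40.1 and 38.2 rescaled TPM, in TRINITY_DN93281_c0_g1, and blood, at 42.3, 43.7 and 41.4 rescaled TPM, in TRINITY_DN9641_c0_g1.

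The most and the least abundant of the 200 differed in which libraries stood out. TRINITY_DN8_c0_g1 had the highest mean, 405 ± 87.0 rescaled TPM (SD, n = 29). Blood had its 3 highest libraries, at 566, 527 and 564 rescaled TPM, and spleen replicate 1 its lowest, at 178. In TPM as deposited it spanned 83.2 to 774 TPM, a 9.31-fold range, the widest of the 200. Spleen replicate 1 was its only library below 100 TPM as deposited, so the rule admitted it through its low value there. TRINITY_DN9767_c0_g1 had the lowest mean, 16.2 ± 4.59 rescaled TPM (SD, n = 29). It was lowest in testis, at 11.0, 8.31 and 10.3 rescaled TPM, and highest in spleen replicate 1, at 31.5. In that library it was at 14.7 TPM as deposited, and the factor is 0.468. The floor of 10 TPM is read before rescaling, so it holds a gene of such a low level high there. Its place at the top in spleen replicate 1 is therefore largely set by the rule. This gene was steadier before rescaling, with an SD of 0.26 log2 in TPM as deposited and 0.37 log2 after.

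Much of the spread that was left lay between tissues. Tissue accounted for a median of 68.5% of the variance of a gene over the libraries among the 200, against 74.7% among the 1701. For 175 of the 200 (87.5%) it accounted for more than 50%, against 93.4% of the 1701. These shares were not corrected for the number of tissue means fitted. Means of so few libraries take up part of the variance even where tissues do not differ, so the shares run high. The spread between libraries of the same tissue had a median SD of 0.24 log2 in the 200 and 0.38 log2 in the 1701. Over all libraries the median SD was 0.36 log2 in the 200 and 0.62 log2 in the 1701. The distance between the highest and the lowest tissue mean was a median of 0.97 log2 in the 200 and 1.79 log2 in the 1701. It was within 1 log2 for 114 of the 200 and for 142 of the 1701. These are parts of the SD that chose the genes, and they are given without a test.

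Ovary and blood held the ends of the range most often, among the 200 and among the 1701 alike. Ovary was the tissue with the highest mean for 48 of the 200 genes and with the lowest for 34, 82 (41.0%) in all, against 41.5% of the 1701. Blood was highest for 35 and lowest for 36, 71 (35.5%) in all, against 43.1% of the 1701. Kidney was at an end for 13 of the 200 (6.5%), fewer than any other tissue, against 7.47% of the 1701. Without 4 libraries ovary was highest for 49 and lowest for 32, and blood highest for 37 and lowest for 31. Ovary has 2 libraries, so its mean is less averaged than the others. In the median over the 200 genes, ovary lay 0.35 log2 and blood 0.32 log2 away from the mean of the other 9 tissues in either direction, skin and spleen 0.24 log2, and kidney and heart 0.15 log2.

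Movement in common among the 200 genes was described on rescaled values. Over the 29 libraries the mean correlation between 2 of the 200 genes was r = 0.059 in 19900 pairs, and 16 pairs had r over 0.8. These are descriptions, since libraries of a tissue share that tissue and all libraries share the rescaling. The factors take out movement that most genes share, and the choice of a low SD works against what is left. A mean r near 0 is therefore largely set in advance, and nothing is read from it. The SD of the log2 ratio of 2 of the 200 genes had a median of 0.49 log2 and a lowest value of 0.17 log2. The genes were also ranked by the mean SD of their ratios to all of the 1701, a measure free of scaling. It was added after the data were seen, and 159 of the 200 were again among the first 200. Both rankings use the same 1701 genes and 29 libraries, so much of this overlap follows from the choice. The first principal component of the 200 took 17.1% of their variance and weighed most on spleen replicate 1, at 0.60, and on the ovary libraries, at 0.36 and 0.39.

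Spleen replicate 1 stood apart for the 200 genes, as it did for the 1701. In rescaled TPM, 154 of the 200 (77.0%) were above their mean over the other 28 libraries there, against 70.2% of the 1701. The median difference over all 200 was 0.41 log2, and 61 of the 200 had their highest library there. The other 28 libraries had median deviations of -0.16 to 0.076 log2 from the genes' own means. The 2 other spleen libraries were not raised, at -0.026 and 0.0019 log2. Over all 1701 genes the median excess in spleen replicate 1 was larger, 0.69 log2. Over the 10028 genes behind the factors it was -0.030 log2, a value that the factors themselves hold near 0. The floor of 10 TPM was read before rescaling, and with a factor of 0.468 it asks more of spleen replicate 1 than of any other library. Of 825 genes that missed the floor in 1 library alone, 547 missed it in spleen replicate 1, and 53 in ovary replicate 3, the library with the next most. The lowest deposited value of a gene was in spleen replicate 1 for 74 of the 200 and in lung replicate 3 for 29.

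**Figure D3:**
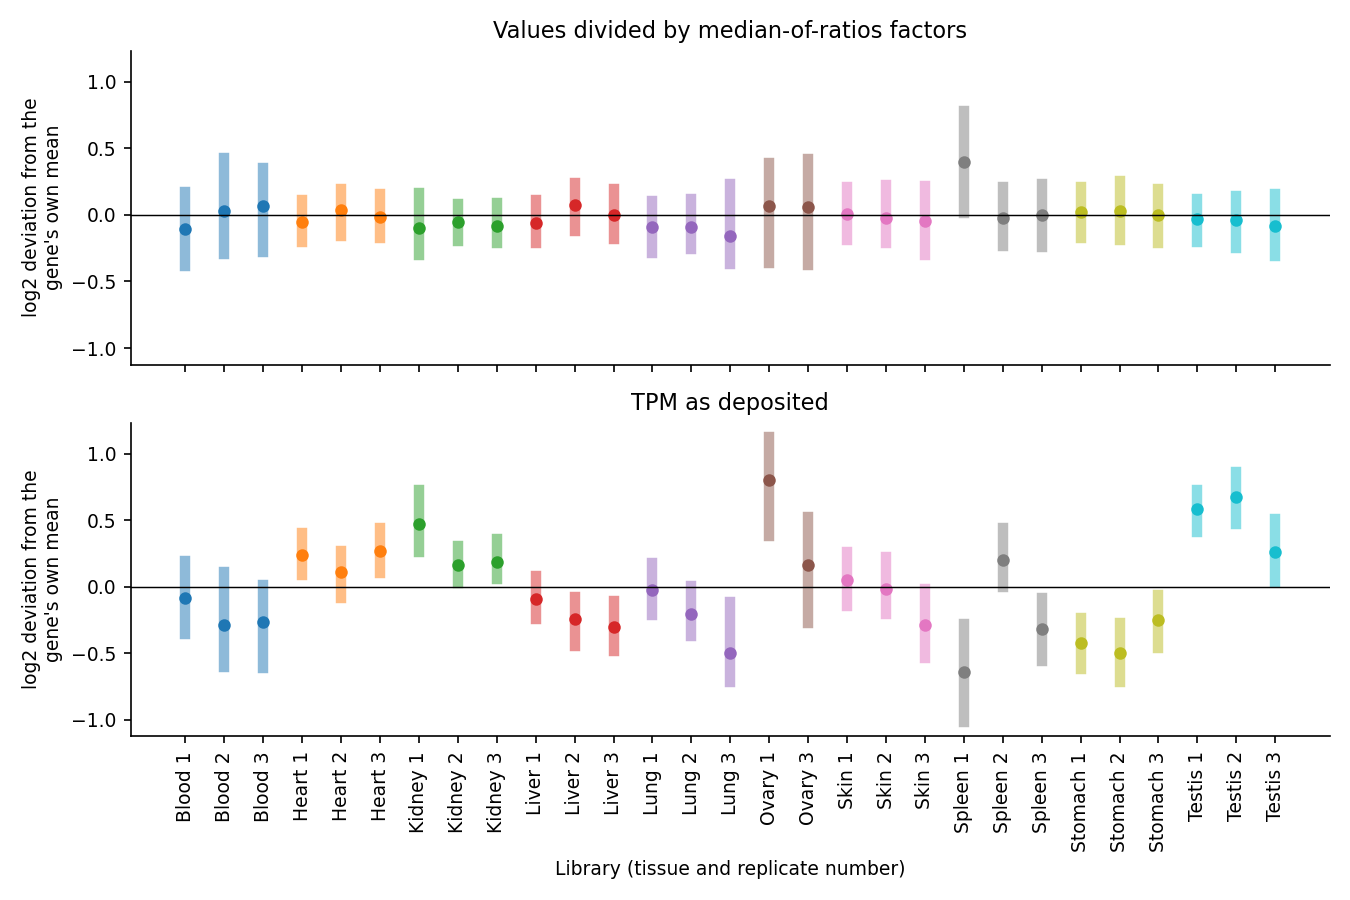
For each of the 29 libraries on the x axis, the point is the median and the bar the quartiles, over the 200 genes, of the log2 deviation of a gene from its own mean over the libraries. In the upper panel (rescaled TPM) the medians lie near 0 except in spleen replicate 1, at 0.40 log2, and the bars are widest in both ovary libraries and spleen replicate 1. In the lower panel (TPM as deposited) the medians run from -0.64 log2 in spleen replicate 1 to 0.80 log2 in ovary replicate 1.

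Before rescaling, whole tissues were shifted. In TPM as deposited, all 3 testis libraries had the 200 genes above their own means, by medians of 0.58, 0.67 and 0.26 log2. All 3 stomach libraries had them below, by medians of -0.42, -0.49 and -0.25 log2. The median SD of the 200 was 0.49 log2 in TPM as deposited and 0.36 log2 after rescaling. In TPM as deposited 31 of the 200 kept all libraries within 3-fold, where 116 did so after rescaling. The 200 were chosen for a low SD after rescaling, so the choice itself favours the rescaled values in both comparisons. Over all 1701 genes the median SD was 0.70 log2 as deposited and 0.62 log2 after rescaling. Of these, 48 kept all libraries within 3-fold as deposited and 123 after rescaling. Chosen from TPM as deposited by the same steps, the 200 steadiest genes shared 101 with those described here.

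Each tissue was compared with the mean of the other 9 in limma, over the 50365 genes that reached 1 TPM in 2 or more libraries, on log2(rescaled TPM + 1). Called genes are those with an adjusted p (Benjamini-Hochberg) below 0.05 within a comparison. Of the 200 genes, 158 (79.0%) were called in at least 1 tissue, against 80.7% of all genes tested and 92.2% of the 1701. Of the 200, 59 were called in 1 tissue, 99 in 2 or more and 42 in none. With a log2 difference of 1 or more required as well, 10 (5.00%) were called, against 73.3% of all genes tested and 65.5% of the 1701. The libraries that chose the genes also gave these calls, so the counts are a description and nothing is read from them. Leaving out spleen replicate 1 gave 188 of the 200 (94.0%) called, against 81.3% of all genes tested. The share moved from below to above that of all genes. Calls among the 1701 rose as well, to 1649 from 1568 with all libraries. With a log2 difference of 1 or more, leaving out spleen replicate 1 gave 8 (4%), against 73% of all genes tested and 1049 of the 1701. Leaving out all 4 libraries gave 182 (91.0%), against 81%, and 12 (6%), against 73.2%. Of the 1701 it gave 1639 and 1077. Leaving out ovary replicate 1 gave 164 (82.0%), against 81.7%, and 17 (8.50%), against 74.7%.

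**Figure D4:**
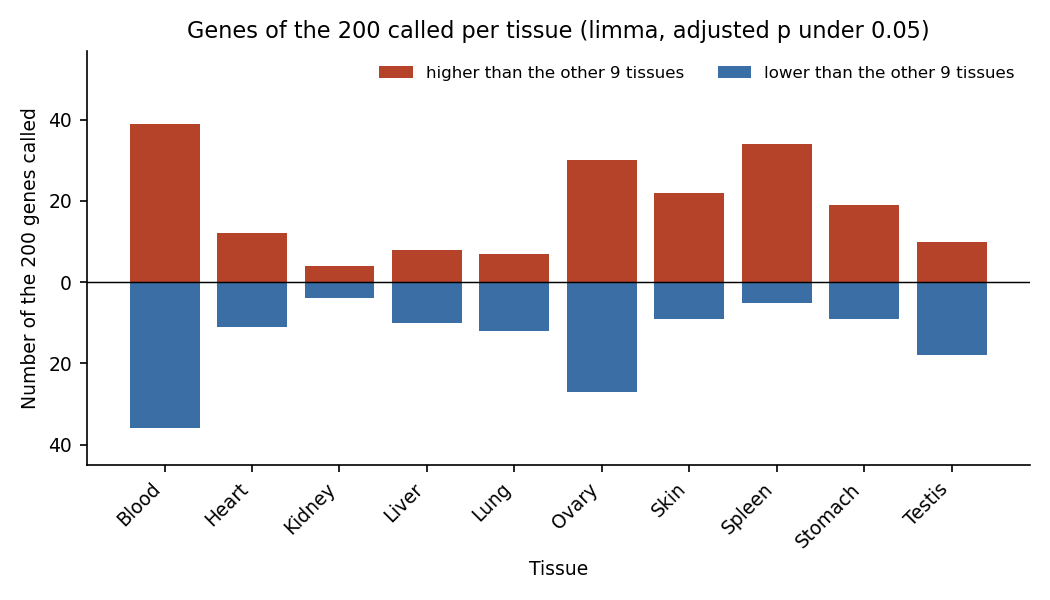
Number of the 200 genes called higher (red, above 0) or lower (blue, below 0) in a tissue than in the mean of the other 9, by limma on log2(rescaled TPM + 1) with a Benjamini-Hochberg adjusted p below 0.05. Blood, with 39 higher and 36 lower, and ovary, with 30 and 27, have the most, and kidney, with 4 and 4, the fewest.

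Differences given below for single genes are a tissue minus the mean of the other 9 on the log2(rescaled TPM + 1) scale with limma's standard error (SE). For each tissue the called gene with the largest difference in each direction is named. Counts that shift by more than 1.5 times when 1 library is left out are given with that library. Among the 1701 genes, of which the 200 are part, 422 were called higher and 486 lower in blood, and 289 and 458 in ovary. Spleen had 436 and 145, skin 218 and 94, stomach 221 and 217 and testis 113 and 306. Heart had 244 and 123, lung 157 and 204, liver 223 and 108 and kidney 83 and 102. Without 4 libraries 49787 genes were tested. Of these, 7710 were called higher and 14807 lower in blood, 7157 and 10835 in ovary and 3710 and 5027 in spleen. Skin then had 5131 and 6362, stomach 5261 and 11155, testis 7051 and 6336 and heart 5583 and 7390. For lung the numbers were 7467 and 7750, for liver 4718 and 5780 and for kidney 6895 and 2042. Counts below with 1 library left out are of the 200 unless said otherwise. Leaving out a library of a tissue lowered the calls in that tissue over all genes tested too, in both directions. Without stomach replicate 2 all genes tested had 3758 higher and 3803 lower in stomach, in place of 4788 and 7768. Without heart replicate 3 they had 3432 and 2105 in heart, in place of 4936 and 4372. A fall in a count below is therefore not read as particular to the 200.

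In blood 39 of the 200 genes were called higher and 36 lower, against 14.6% and 24.7% of all genes tested. Without 4 libraries the numbers were 52 and 45. The lower genes numbered 21 without blood replicate 2 and 21 without blood replicate 3. TRINITY_DN340_c0_g1 was at 115, 169 and 129 rescaled TPM in blood. Elsewhere its lowest value was 40.9, its median 63.1 and its highest 81.9 rescaled TPM. Every blood library lay above all 26 others, and the difference was 1.14 ± 0.12 log2 (SE), the largest positive one of the 200. TRINITY_DN54588_c0_g2 was at 38.2, 45.8 and 63.5 rescaled TPM in blood and at 65.6, 89.4 and 173 rescaled TPM (lowest, median and highest) elsewhere. All blood libraries lay below the others, with a difference of -0.88 ± 0.14 log2 (SE). Amphibian red blood cells keep their nucleus, so blood RNA comes from red as well as white cells.

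In ovary 30 of the 200 were called higher and 27 lower, against 13.2% and 14.4% of all genes tested. Without 4 libraries the numbers were 57 and 36. The higher genes numbered 13 without ovary replicate 3 and 53 without spleen replicate 1. With a log2 difference of 1 or more required as well, 5 of the 200 were called higher and 2 of the 200 lower in ovary, against 11.1% and 10.1% of all genes tested. TRINITY_DN4951_c0_g1 was at 68.8 and 52.1 rescaled TPM in ovary and at 17.7, 27.1 and 50.5 rescaled TPM (lowest, median and highest) elsewhere. Its highest value outside ovary was in kidney replicate 1, where genes restricted to ovary were at a median of 34.8% of their ovary level. The difference was 1.11 ± 0.20 log2 (SE), and the groups did not overlap. TRINITY_DN475_c0_g1 was at 61.8 and 96.8 rescaled TPM in ovary, below all 27 other libraries, which ran from 121 to 256 rescaled TPM with a median of 181. Its difference of -1.18 ± 0.18 log2 (SE) was the largest negative one of the 200.

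In spleen 34 of the 200 were called higher and 5 lower, against 8.11% and 12.7% of all genes tested. The 1701 genes leaned the same way as the 200, with 436 higher and 145 lower. Without spleen replicate 1 the numbers among the 200 were 15 and 16, and without 4 libraries 17 and 17. The lean towards higher genes was then absent from the 200. Calls also changed beyond them. Without spleen replicate 1 the 1701 had 202 higher and 153 lower, and all genes tested 3347 and 2461, in place of 4083 and 6388. Spleen then had fewer libraries, and the cause of the shift was not tested. The lower genes of the 200 also shifted to 9 without ovary replicate 1. They numbered 3 without any 1 of blood replicate 2, heart replicates 1 and 2, skin replicate 1 and spleen replicates 2 and 3. TRINITY_DN5730_c0_g1 was at 59.6, 35.7 and 36.5 rescaled TPM in spleen and at 14.0, 19.9 and 24.5 rescaled TPM (lowest, median and highest) elsewhere. Every spleen library lay above the others, and the difference was 1.08 ± 0.13 log2 (SE). TRINITY_DN376_c0_g1 was at 34.1, 32.7 and 32.4 rescaled TPM in spleen. The others ran from 32.8 to 70.8 rescaled TPM with a median of 46.5, and skin replicate 3 reached into the spleen range. Its difference was -0.52 ± 0.12 log2 (SE).

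In skin 22 of the 200 were called higher and 9 lower, against 8.69% and 6.35% of all genes tested. The numbers without 4 libraries were 30 and 25, and without spleen replicate 1 the lower genes numbered 20. Leaving out skin replicates 1, 2 or 3 gave 8, 8 and 11 higher genes, and leaving out replicates 2 or 3 gave 2 and 1 lower genes. TRINITY_DN1221_c0_g1 was at 40.1, 41.9 and 39.4 rescaled TPM in skin and at 12.1, 23.1 and 34.8 rescaled TPM (lowest, median and highest) elsewhere. The groups did not overlap, and the difference was 0.85 ± 0.15 log2 (SE). TRINITY_DN25_c2_g1 was at 21.2, 17.3 and 18.6 rescaled TPM in skin and at 21.9, 29.6 and 49.8 rescaled TPM (lowest, median and highest) elsewhere, again without overlap. Its difference was -0.71 ± 0.15 log2 (SE).

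In stomach 19 of the 200 were called higher and 9 lower, against 9.51% and 15.4% of all genes tested. The numbers without 4 libraries were 28 and 16. Without stomach replicate 2 there were 9 and 3, and without stomach replicate 3 there were 10 and 2. TRINITY_DN3530_c1_g1 was at 48.2, 57.7 and 49.2 rescaled TPM in stomach and at 17.8, 30.8 and 44.2 rescaled TPM (lowest, median and highest) elsewhere. All stomach libraries lay above the others, with a difference of 0.76 ± 0.15 log2 (SE). On TPM as deposited its difference was 0.29 log2 and it was not called (limma, Benjamini-Hochberg adjusted p = 0.213). TRINITY_DN1608_c0_g1 was at 24.2, 30.5 and 31.4 rescaled TPM in stomach, below the other libraries, which ran from 32.2 to 79.6 rescaled TPM with a median of 45.5. Its difference was -0.65 ± 0.13 log2 (SE).

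In testis 10 of the 200 were called higher and 18 lower, against 13.5% and 7.81% of all genes tested. The 1701 genes leaned the same way as the 200, with 113 higher and 306 lower. The numbers without 4 libraries were 19 and 30. The higher genes numbered 17 without spleen replicate 1, 4 without testis replicate 2 and 5 without testis replicate 3. There were 10 lower genes without testis replicate 2. TRINITY_DN1087_c0_g1 was at 85.0, 82.3 and 139 rescaled TPM in testis and at 37.8, 50.3 and 79.1 rescaled TPM (lowest, median and highest) elsewhere. The groups did not overlap, and the difference was 0.88 ± 0.16 log2 (SE). TRINITY_DN13529_c0_g1 was at 59.6, 44.0 and 44.3 rescaled TPM in testis, below all others, which ran from 69.1 to 155 rescaled TPM with a median of 101. Its difference was -1.02 ± 0.13 log2 (SE). On TPM as deposited it was -0.41 log2 and was not called (limma, Benjamini-Hochberg adjusted p = 0.162).

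In heart 12 of the 200 were called higher and 11 lower, against 9.8% and 8.68% of all genes tested. Without 4 libraries they were 19 and 17. Without heart replicate 3 there were 7 and 5, and the lower genes numbered 4 without heart replicate 1 and 4 without heart replicate 2. TRINITY_DN5243_c0_g1 was at 46.9, 52.2 and 53.0 rescaled TPM in heart and at 16.4, 27.1 and 39.2 rescaled TPM (lowest, median and highest) elsewhere. No other library reached the heart range, and the difference was 0.94 ± 0.19 log2 (SE). TRINITY_DN93281_c0_g1, the last of the 200, had a difference of -0.85 ± 0.16 log2 (SE) in heart. Ovary replicate 3, at 38.9 rescaled TPM, was the only other library within its heart range. On TPM as deposited the difference was -0.63 log2 and was not called (limma, Benjamini-Hochberg adjusted p = 0.0781).

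In lung 7 of the 200 were called higher and 12 lower, against 14% and 9.03% of all genes tested. The 1701 genes leaned the same way as the 200, with 157 higher and 204 lower. Without 4 libraries they were 11 and 28. The higher genes numbered 11 without ovary replicate 3, and the lower genes 23 without spleen replicate 1. Without lung replicate 1 there were 3 and 4, and without lung replicate 3 likewise 3 and 4. TRINITY_DN556_c3_g1 was at 145, 158 and 106 rescaled TPM in lung and at 57.2, 76.9 and 138 rescaled TPM (lowest, median and highest) elsewhere. Spleen replicate 1 was the highest of 3 other libraries that reached the lung range, and the difference was 0.72 ± 0.17 log2 (SE). TRINITY_DN9601_c0_g1 was at 33.4, 41.4 and 38.6 rescaled TPM in lung and at 39.6, 60.6 and 97.2 rescaled TPM (lowest, median and highest) elsewhere. Stomach replicate 3 alone overlapped lung, and the difference was -0.69 ± 0.15 log2 (SE).

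In liver 8 of the 200 were called higher and 10 lower, against 9.73% and 9.67% of all genes tested. Leaving out 4 libraries gave 10 and 9. Without liver replicate 2 there were 1 and 4, and without liver replicate 3 there were 3 and 2. There were 2 lower genes without liver replicate 1 and 6 without any 1 of blood replicates 2 and 3, heart replicates 2 and 3, and stomach replicates 2 and 3. TRINITY_DN24991_c0_g1 was at 193, 313 and 227 rescaled TPM in liver and at 87.4, 159 and 223 rescaled TPM (lowest, median and highest) elsewhere. In this gene 4 other libraries reached the liver range, and the difference was 0.69 ± 0.15 log2 (SE). Its call was lost without liver replicate 2, at 0.50 log2 (limma, Benjamini-Hochberg adjusted p = 0.0593), and on TPM as deposited, at 0.43 log2 (adjusted p = 0.229). TRINITY_DN425_c0_g1 was at 22.1, 19.3 and 16.0 rescaled TPM in liver and at 21.2, 28.9 and 44.6 rescaled TPM (lowest, median and highest) elsewhere, with heart replicate 3 in the liver range. Its difference of -0.64 ± 0.15 log2 (SE) was no longer called without liver replicate 3, at -0.53 log2 (limma, Benjamini-Hochberg adjusted p = 0.0545).

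Kidney had the fewest, 4 higher and 4 lower, against 13.1% and 3.72% of all genes tested. Without 4 libraries they were 8 and 7. Without ovary replicate 1 there were 7 and 10, and without spleen replicate 1 there were 7 and 7. The higher genes numbered 1 without kidney replicate 2, and without kidney replicate 3 there were 1 and 2. Without lung replicate 2 the lower genes numbered 7. TRINITY_DN77201_c0_g2 was at 32.7, 38.6 and 39.9 rescaled TPM in kidney and at 14.5, 22.8 and 40.2 rescaled TPM (lowest, median and highest) elsewhere. Spleen replicate 1 was the highest of 3 other libraries that reached the kidney range, and the difference was 0.64 ± 0.14 log2 (SE). TRINITY_DN1221_c0_g1, also named above for skin, was at 12.1, 17.5 and 15.6 rescaled TPM in kidney, with 2 other libraries in that range. Its kidney difference was -0.68 ± 0.15 log2 (SE). On TPM as deposited it was -0.32 log2 and was not called (limma, Benjamini-Hochberg adjusted p = 0.355).

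With TPM as deposited in the same fit, calls among the 200 leaned to 1 direction within most tissues. In testis 100 of the 200 were called higher and 0 lower, against 24.6% and 4.2% of all genes tested. In ovary 73 were higher and 1 lower, against 15.9% and 7.37%. In stomach 0 were higher and 82 lower, against 5.31% and 22.1%. In blood 7 were higher and 55 lower, against 9.67% and 26.3%, and in spleen 1 was higher and 42 lower, against 4.82% and 17.1%. At an unadjusted limma p under 0.05, 0 of the 200 were lower in testis and 0 higher in stomach as well. No such count was made over all genes, so nothing is read from these. Testis and ovary thus had mostly higher calls, and stomach, blood and spleen mostly lower ones.

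The remaining tissues had fewer calls in TPM as deposited. Kidney had 18 of the 200 higher and 0 lower, against 17.8% and 2.27% of all genes tested, and heart 17 and 0, against 11% and 6.81%. At an unadjusted limma p under 0.05, 0 were lower in kidney and 3 in heart, again without a count over all genes. Lung had 2 higher and 21 lower, against 10.8% and 9.24%, liver 1 and 19, against 6.8% and 11.9%, and skin 5 and 12, against 7.11% and 6.09%. Skin thus had calls in both directions, while heart and kidney had higher ones and lung and liver mostly lower ones. In total 174 of the 200 were called in some tissue, against 80.7% of all genes tested, and 46 with a log2 difference of 1 or more, against 75.6%. Over the 1701 genes the median difference in TPM as deposited was 0.46 log2 in testis, 0.29 log2 in kidney, 0.27 log2 in ovary, 0.26 log2 in heart, -0.06 log2 in skin, -0.18 log2 in liver, -0.20 log2 in spleen, -0.27 log2 in lung, -0.36 log2 in blood and -0.48 log2 in stomach. The 200 were chosen to be flat on rescaled values, so the factors of a tissue's libraries fix much of the direction of these calls, and nothing is read from it. In rescaled TPM the same medians were -0.14 log2 in testis, -0.18 log2 in ovary, 0.24 log2 in spleen, -0.11 log2 in blood and -0.11 log2 in lung, and within 0.1 log2 of 0 in the other 5 tissues.

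Whether steadiness carries over to a tissue that had no part in the choice was asked by leaving out each tissue in turn. The 200 steadiest genes were chosen again from the libraries of the other 9 tissues, and the left-out tissue was then read. A gene counted as steady there when the tissue lay within 0.5 log2 (1.41-fold) of the mean of the other 9. The share of chosen genes that did so had a median of 78.5% over the 10 tissues, against 65.7% for all genes within the level limits. It was above that of all such genes in 10 of 10 tissues. The 10 choices share most of their libraries, so no test was made across them.

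Outside ovary and blood, most genes chosen without a tissue lay within 0.5 log2 in it. Outside ovary, blood and spleen, so did most of all genes within the limits. The share within 0.5 log2 was 92.5% in kidney, against 79.3% for all genes within the limits, 89.0% against 66.2% in lung, 87.5% against 69.1% in liver and 83.0% against 66.1% in heart. It was 78.5% against 61.4% in stomach, 77.5% against 67.6% in skin and 78.5% against 65.3% in testis. In kidney and lung 0 of 200 chosen genes lay more than 1 log2 away, against 3.82% and 8.91% of all genes within the limits. Without rescaling the shares were lower in every tissue. In TPM as deposited the median over the 10 tissues was 65.8%. Testis then had 51.0%, against 47.2% for all genes within the limits, stomach 60.5% against 43.3% and skin 71.0% against 67.3%. In kidney 4 and in lung 3 of 200 chosen genes then lay more than 1 log2 away.

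Ovary and blood had the lowest shares. The share within 0.5 log2 was 44.5% in ovary, against 37.6% for all genes within the limits, and 49.5% against 35.7% in blood. Of 200 genes chosen without ovary, 44 (22.0%) lay more than 1 log2 from the other tissues in ovary, 23 higher and 21 lower, against 29.9% of all genes within the limits. Of 200 chosen without blood, 39 (19.5%) did so in blood, 22 higher and 17 lower, against 35.0%. The median differences were near 0, 0.035 log2 in ovary and 0.015 log2 in blood, so the genes spread to both sides. Without 4 libraries the share was 36.5% against 36.1% in ovary and 51.5% against 37.8% in blood. In ovary the chosen genes and all genes within the limits then differed by less than 1 percentage point. As background, ovary RNA can include transcripts stored in growing eggs.

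Spleen lay between, with 67.5% of chosen genes within 0.5 log2, against 47.6% of all genes within the limits. Of the 200 genes chosen without spleen, 43 (21.5%) fell under 10 TPM in at least 1 spleen library, against 26.2% of all genes within the limits. Of the genes chosen without blood 13 (6.50%) fell under 10 TPM there, against 14.2%, and of those chosen without stomach 15 (7.50%), against 6.31%. With 4 libraries left out, among them spleen replicate 1, the share in spleen was 79.5% against 64.0%.

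**Figure D5:**
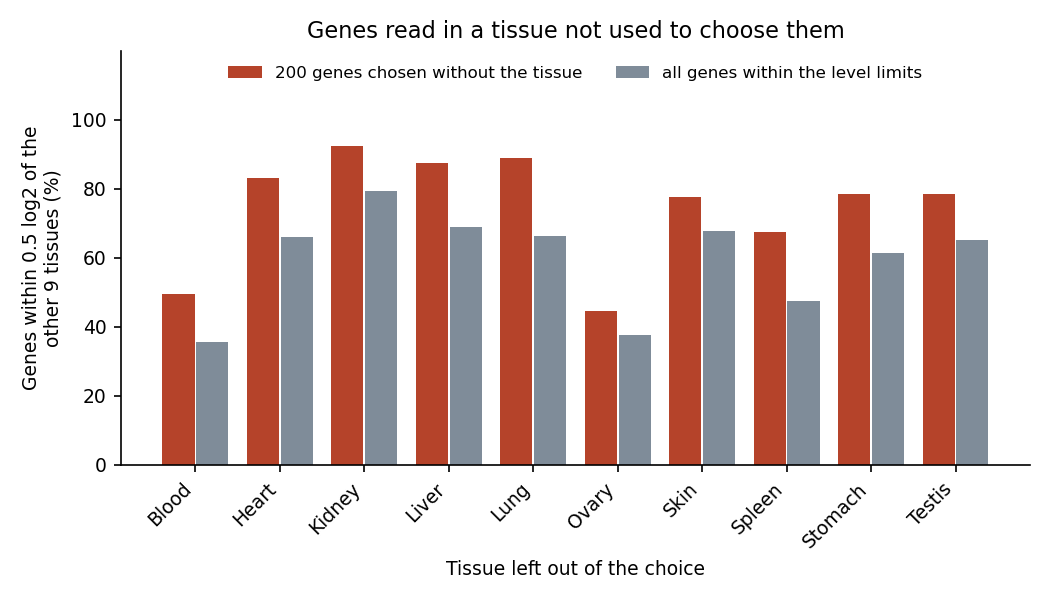
For each tissue on the x axis, the share (y axis, percent, starting at 0) of genes whose level there lay within 0.5 log2 of the mean of the other 9 tissues. Red bars are the 200 genes chosen without that tissue and grey bars all genes within the level limits of the other 9. Red is above grey in every tissue, from 92.5% in kidney down to 44.5% in ovary.

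When libraries or tissues were left out, genes at the top of the list were chosen again more often than those at the bottom. Most of the same libraries ranked the genes, so this order follows largely from the ranking and is a description. Whichever library was left out, 108 of the 200 genes were chosen again, and whichever tissue was left out, 95 were. All of the 10 steadiest genes were chosen in every 1 of these choices. Of the 50 steadiest, 49 were chosen again whichever library and 49 whichever tissue was left out. Of the last 50, 3 and 0 were. A floor of 5 TPM left every SD as it was and only added candidates. That it kept all of the 50 steadiest and 0 of the last 50 follows from the ranking. The order did not hold under every setting. A floor of 20 TPM kept 2 of the 10 steadiest genes and dropped both TRINITY_DN772_c0_g1 and TRINITY_DN117800_c0_g1, whose lowest deposited values were 16.0 and 14.8 TPM. It kept 22 of the 50 steadiest and 25 of the last 50. Chosen from TPM as deposited, 9 of the 10 steadiest, 34 of the 50 steadiest and 23 of the last 50 were kept. Leaving out spleen replicate 1 changed the list most of the 29 libraries, with 124 of the 200 kept. The level limits then admitted 2200 genes in place of 1701, and 38 of the 200 genes chosen were under 10 TPM in spleen replicate 1. Over the 28 choices that left out another library, 158 of the 200 were kept every time.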

How the data were processed

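RNA was sequenced from 10 tissues in 29 libraries; mRNA was captured on poly-T beads, per the labels' protocols. The authors deposited TPM for 53113 assembled genes, per the file headers, and every column sums to 1000000. Sources used here do not name the assembler, quantifier or filters. All 29 columns matched a sample by its description, and 0 others were present. TPM keeps no depth, so no count test or counting interval was used.

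Median-of-ratios factors came from genes at 1 TPM or more in all libraries. Tissue means were fitted over all libraries in limma 3.58.1 (R 4.3.3; intensity trend, pseudocount of 1), each tissue minus the unweighted mean of the other 9, with Benjamini-Hochberg adjustment within a comparison over all 50365 genes. Choice and fit were first tested on simulated data. Named genes were the 2 lowest SDs, both sides of the edge, the highest and lowest mean and, per tissue, the largest called difference each way. Alternatives covered scaling, pseudocount, level limits, measure of spread, the replicate number as a block and left-out libraries and tissues. Python 3.11.15, pandas 2.3.3, numpy 2.4.6 and matplotlib 3.10.9 were used. The members, the 4 libraries left out together and the tests were chosen with earlier results of these data known.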

Additional observations from a re-analysis of the deposited data

How the results depend on the processing

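Of the 200 genes, 101 were chosen again from TPM as deposited, 91 by the median absolute deviation, 102 with a floor of 5 TPM, 92 with a floor of 20 TPM, 123 without 4 libraries and 116 without the tissue spleen. A floor of 20 TPM admits 92 of the 200, and all of these were chosen. A higher floor only removes candidates, so this is fixed by the rule. Leaving out spleen replicate 1 and reading the level limits on rescaled values together, added after seeing the data, kept 108; the limits on rescaled values alone, also added then, kept 135. The other choices of scaling, spread, pseudocount and tissues kept between 141 and 198. Leaving out 1 library at a time kept 124 to 198.

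Members called in at least 1 tissue numbered 145 to 188 when 1 library was left out, and those with a log2 difference of 1 or more 8 to 17, in place of 158 and 10. On TPM as deposited the second number was 46. Where ovary kept 1 library, that library was taken to vary like the others. The replicate block gave 157 and 9. The labels do not say what a number stands for, so the numbers were not treated as pairs. Same-numbered libraries of different tissues had a mean correlation of deviations of 0.015, over 0.1 in 10 of 126 pairs, and differently numbered ones -0.0075, over 0.1 in 5 of 252. Of 29 libraries, 22 were closest to their own number, a hint from the data, not the design, that numbers may be shared. Of 680 values of the 20 named differences under alternatives, 673 kept direction and call and 7 lost the call, 5 of them on TPM as deposited. The causes were not tested. The unknown depth limits what can be said of genes near 10 TPM.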
